A study of Mus musculus with 6 samples.

Results

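The cytosolic ribosomal protein genes were the protein-coding rows whose symbol began with Rpl or Rps followed by a digit, together with Rplp0, Rplp1, Rplp2 and Rpsa. Symbols starting with Rps6k, which name kinases, and symbols marked as pseudogenes were left out. The rule found 84 of 18908 gene rows, and 83 of these were among the 14641 genes with enough counts to be tested. It took in 77 canonical subunits, 31 of the small and 46 of the large subunit. The remaining 7 were 5 paralogs (Rpl3l, Rpl7l1, Rpl22l1, Rpl36al, Rps27l), a retrotransposed copy of Rps27 (Rps27rt) and Rps19bp1, which binds the RPS19 protein and is no part of the ribosome. A few subunits of the cytosolic ribosome, Fau and Rack1 among them, have symbols that the rule could not match.

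Messenger RNA from mouse cells was sequenced in 6 libraries. The libraries formed the groups VprBP shRNA (n = 3) and control shRNA (n = 3), and all carried the labels bone marrow macrophage and WT. Short hairpin RNAs (shRNA) deplete the transcript they pair with, and VprBP is an older name of Dcaf1, the substrate receptor of a CUL4 ubiquitin ligase. Mouse strain, age, culture time and the number of animals were not given in the sources used here, so p-values measure the spread between libraries, which may be technical.

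The markers of the labelled cell type were nearly absent, and those of pigment cells were abundant. The 8 pigment cell markers (Tyr, Tyrp1, Dct, Pmel, Mlana, Mitf, Sox10 and Slc45a2) all had a row. Summed over these 8, the level was 19650 to 20160 CPM (counts scaled to a common library total) in VprBP-labelled and 21070 to 21450 CPM in control-labelled libraries. The sums hide differences in both directions, since all 8 were called. Tyr (1.92), Sox10 (1.81) and Mitf (1.78) were higher, and Slc45a2 (-1.93), Pmel (-1.48) and Mlana (-1.42) were lower, on the log2 scale. Dct (0.59) and Tyrp1 (0.08) were also higher. The part of these markers in the member differences was not tested. Of 12 macrophage markers, 7 had no row, Csf1r, Adgre1, Itgam, Spi1 and Tyrobp among them. The other 5 summed to 16.5 to 18.4 CPM in VprBP-labelled and 37.1 to 40.3 CPM in control-labelled libraries, mostly Mertk in VprBP-labelled and Cd68 in control-labelled libraries. These sums mix directions too. Cd68 was lower (1.01 CPM in VprBP-labelled and 31.6 CPM in control-labelled libraries, log2 difference -4.95). Mertk (1.32) and Lyz2 (1.25) were higher, Cd14 was not called and Fcer1g was too low to test. Dcaf1 itself was at 36.0, 34.6 and 36.8 CPM in VprBP-labelled libraries, against 42.2, 43.5 and 40.7 CPM in control-labelled libraries. It fell by 0.24 on the log2 scale (SE 0.07, adjusted p = 0.00625), or by 0.12 with no scaling beyond library size (adjusted p = 0.137). The groups are therefore called by their labels, and each difference below is one between labels. Libraries held 16839445 to 21838875 counts, and a gene without a count could be present at 0.144 to 0.186 CPM, by counting error alone (3 counts). Fewer cells of a type and less RNA per cell cannot be told apart in such libraries.

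A ribosome reads messenger RNA on its small subunit and joins amino acids on its large subunit. Each ribosomal protein is, with few exceptions, present as a single copy per ribosome, and the proteins are short-lived when they are not assembled with ribosomal RNA. Their messenger RNAs are among the most abundant of dividing cells and begin with a run of pyrimidines, the terminal oligopyrimidine (TOP) tract, through which mTOR and LARP1 control their translation together.

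Ribosomal protein transcripts were called about as often as all genes but less often than abundant ones, and with the main scaling more were lower than higher. Of the 83 tested, 27 were higher and 36 lower in VprBP-labelled libraries at a Benjamini-Hochberg adjusted p below 0.05 (edgeR's quasi-likelihood test over all 14641 genes), and 20 did not pass. That is 75.9% called, beside 75.0% of all genes tested, of which 37.9% were higher and 37.0% lower. Most members are abundant, and of the 2008 genes averaging 100 CPM or more 89.2% were called, 44.9% higher and 44.3% lower. With no scaling beyond library size the split was 42 higher and 30 lower, while the median of all genes tested moved to 0.10. The labels did not overlap for 59 members, beside 77.2% of all genes and 89.9% of the abundant ones. All 59 were called, and the 4 called members that overlapped were Rpl8, Rpl21, Rpl27 and Rpl28.

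The differences were small in size. The median member differed by 0.006 on the log2 scale, beside -0.012 for all genes tested, with quartiles of -0.30 and 0.21. The SD of the log2 differences was 0.44 over members and 1.50 over all genes. A difference under 0.5 in size was found for 68 members (81.9%), beside 38.5% of all genes and 45.3% of the 2008 genes averaging 100 CPM or more. Only 3 members differed by 1 or more, Rps4x upward and Rpl22l1 and Rps19bp1 downward, whereas 33.6% of all genes were called with a difference of that size, as were 28.1% of the abundant ones. Replicates were close, with a median coefficient of variation over the members tested of 4.96% in VprBP-labelled and 4.67% in control-labelled libraries.

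**Figure D1:**
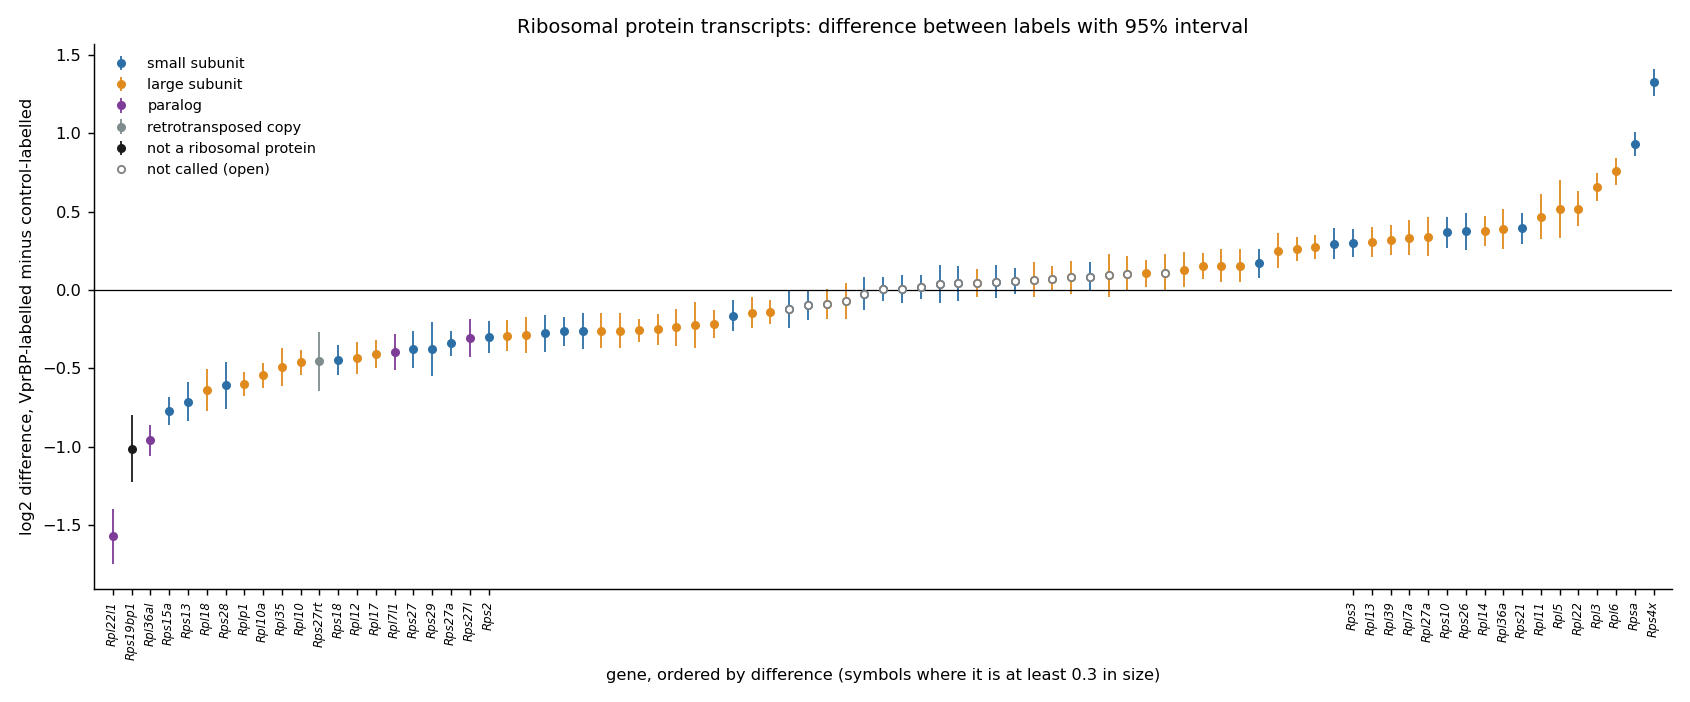
Log2 difference (VprBP-labelled minus control-labelled, y axis) of each of the 83 tested members, ordered along the x axis, with symbols for those of at least 0.3 in size and approximate 95% intervals derived from the edgeR F statistic, coloured by class. Filled points were called and open points were not. Rpl22l1, Rps19bp1 and Rpl36al sit at the low end, while the paralogs Rpl7l1 (-0.40) and Rps27l (-0.31) lie among the subunits that fell. Rps4x (1.32) and Rpsa (0.93) stand above the other subunits.

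Among the 31 small-subunit transcripts, 8 were higher, 12 lower and 11 not called, with a median of 0.006. That is 64.5% called, beside 75.0% of all genes tested and 89.2% of those averaging 100 CPM or more. Rps4x and Rpsa moved most. Rps4x encodes a protein of the small-subunit body from the X chromosome, and in human a Y-linked copy exists beside it. It lies on the minus strand at chrX:102184941-102189394 (GRCm38, GENCODE M21). Its level was 683, 718 and 760 CPM in VprBP-labelled libraries, against 287, 292 and 285 CPM in control-labelled libraries. All VprBP-labelled libraries were far above all control-labelled ones, and the transcript was 2.50-fold higher (log2 difference 1.32, SE 0.04, adjusted p = 1.02e-14). Rpsa, at chr9:120127689-120132369 on the plus strand, encodes a small-subunit protein that is also known as the laminin receptor. It was at 793, 801 and 843 CPM in VprBP-labelled libraries, against 427, 426 and 423 CPM in control-labelled libraries. The labels were again fully apart, with a 1.91-fold higher level (log2 difference 0.93, SE 0.04, adjusted p = 2.57e-13). The next in size among those that rose was Rps21, which had 242, 221 and 245 CPM in VprBP-labelled libraries, against 179, 174 and 185 CPM in control-labelled libraries (log2 difference 0.39, SE 0.05, adjusted p = 1.21e-06). Others that rose were Rps26 and Rps10 (0.37 each), Rps3 (0.30) and Rps20 (0.17). RPS26 sits at the exit of the messenger RNA channel and RPS3 at its entry.

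The small-subunit transcripts that fell most were Rps15a, Rps13 and Rps28. Rps15a, on the minus strand at chr7:118104372-118116188, was at 160, 170 and 169 CPM in VprBP-labelled libraries, against 276, 291 and 285 CPM in control-labelled libraries. It was 1.71-fold lower (log2 difference -0.77, SE 0.05, adjusted p = 3.53e-11). Rps13, at chr7:116331505-116334195 on the minus strand, had 129, 110 and 105 CPM in VprBP-labelled libraries, against 180, 196 and 188 CPM in control-labelled libraries (log2 difference -0.71, SE 0.06, adjusted p = 1.25e-08). For both genes every VprBP-labelled library was below every control-labelled one. Rps28 was at 95.2, 83.7 and 79.8 CPM in VprBP-labelled libraries, against 120, 126 and 149 CPM in control-labelled libraries (log2 difference -0.61, SE 0.08, adjusted p = 1.03e-06). The other 9 that fell lay between -0.44 (Rps18) and -0.16 (Rps23). They included Rps19, the gene most often mutated in Diamond-Blackfan anaemia (-0.28), and Rps27a, which is made as a fusion with ubiquitin (-0.34).

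Rps6 and Rps3a1 were among the members nearest to no difference. Rps6, whose protein is the substrate of the S6 kinases, was at 676, 713 and 682 CPM in VprBP-labelled libraries and at 701, 677 and 684 CPM in control-labelled libraries. The labels overlapped, and the log2 difference was 0.01 with a 95% interval of -0.07 to 0.08 (adjusted p = 0.897). Rps3a1 was as close to 0 (0.02, interval -0.06 to 0.09). With no scaling beyond library size these values were 0.12 for Rps6 (adjusted p = 0.00884) and 0.13 for Rps3a1 (adjusted p = 0.00511), so that both were then called higher.

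**Figure D2:**
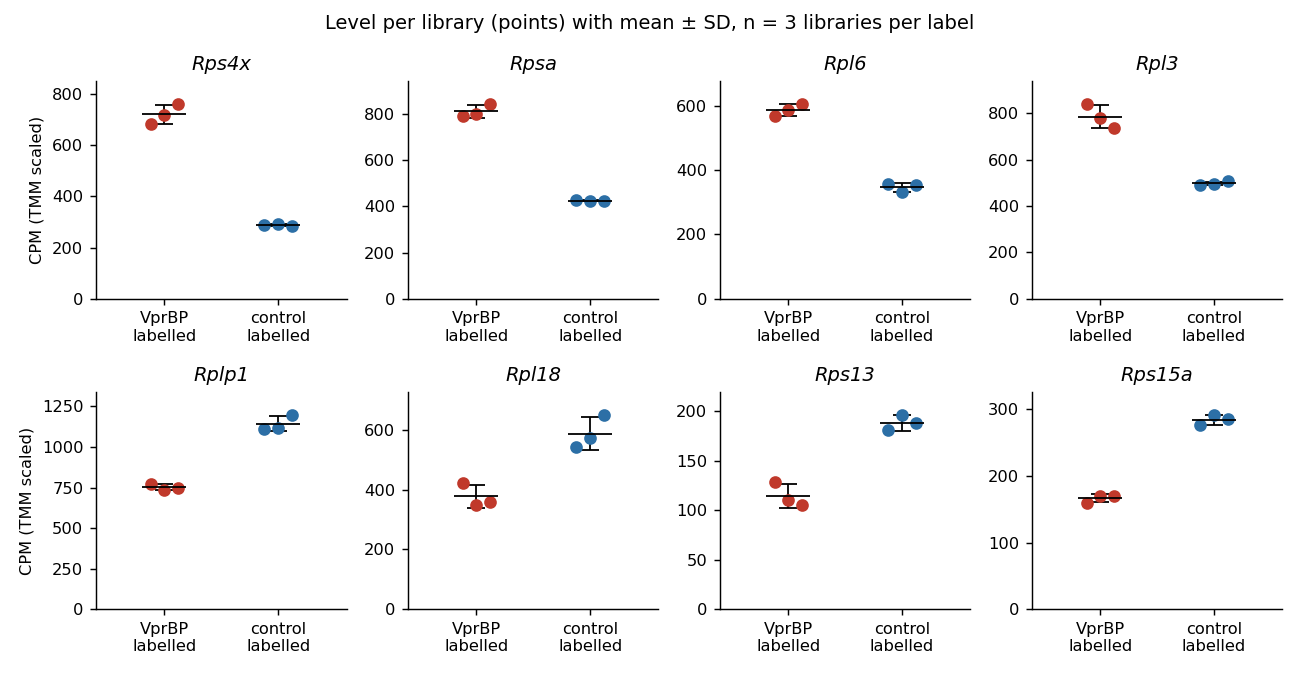
Level in CPM (y axis, from 0) of 8 canonical subunit transcripts in each library, with VprBP-labelled libraries in red on the left and control-labelled libraries in blue on the right of each panel; black marks give the mean and SD of 3 libraries. The upper row shows the 4 canonical transcripts with the largest called difference upward, and the lower row 4 of the 5 largest downward; in no panel do the labels overlap.

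Among the 46 large-subunit transcripts, 19 were higher, 18 lower and 9 not called, with a median of 0.08. That is 80.4% called, between the 75.0% of all genes tested and the 89.2% of those averaging 100 CPM or more. Rpl6 and Rpl3 rose most. Rpl6, at chr5:121204481-121209241 on the plus strand, was at 569, 586 and 605 CPM in VprBP-labelled libraries, against 356, 331 and 355 CPM in control-labelled libraries (log2 difference 0.76, SE 0.04, adjusted p = 2.02e-11). Rpl3 encodes a protein that reaches towards the peptidyl transferase centre, the site of peptide bond formation, and lies on the minus strand at chr15:80077791-80091868. It had 839, 782 and 737 CPM in VprBP-labelled libraries, against 491, 496 and 506 CPM in control-labelled libraries (log2 difference 0.66, SE 0.05, adjusted p = 3.17e-10). In both genes every VprBP-labelled library was above every control-labelled one, by a 1.69-fold higher level for Rpl6 and a 1.58-fold higher level for Rpl3. Rpl22 rose by 0.52 and is described with its paralog. Rpl4, whose protein lines the tunnel through which the new peptide leaves, and Rpl39, another tunnel protein, rose by 0.27 and 0.32.

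Rpl18 and Rplp1 fell most in the large subunit. Rpl18, at chr7:45715457-45720836 on the plus strand, was at 422, 349 and 360 CPM in VprBP-labelled libraries, against 540, 572 and 649 CPM in control-labelled libraries. It was 1.56-fold lower (log2 difference -0.64, SE 0.07, adjusted p = 1.20e-07). Rpl10a (-0.55), Rpl35 (-0.49) and Rpl10 (-0.46) followed Rplp1. RPL10 joins the large subunit late in its maturation, and RPL35 lies at the tunnel exit. Rpl24, a part of the contact between the subunits, differed by -0.09 and was not called (adjusted p = 0.0977).

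The stalk of the large subunit, which recruits the translation factors that split GTP, is built on RPLP0 and RPL12 and carries pairs of RPLP1 and RPLP2. Of the 4 transcripts, 3 fell and Rplp2 was not called, beside 37.0% lower among all genes tested. Rplp1, on the minus strand at chr9:61913284-61914542, was at 773, 738 and 751 CPM in VprBP-labelled libraries, against 1114, 1118 and 1197 CPM in control-labelled libraries. The labels were well apart, and the level was 1.52-fold lower (log2 difference -0.60, SE 0.04, adjusted p = 1.95e-10). Rplp2, the partner of Rplp1 in the same heterodimer, was at 349, 316 and 308 CPM in VprBP-labelled libraries, against 316, 337 and 371 CPM in control-labelled libraries. Here the labels overlapped, and the difference of -0.07 had a 95% interval of -0.18 to 0.04 (adjusted p = 0.274). Rplp0 was at 780, 797 and 796 CPM in VprBP-labelled libraries, against 932, 939 and 967 CPM in control-labelled libraries (log2 difference -0.26, SE 0.04, adjusted p = 5.03e-06). Rpl12 had 176, 182 and 203 CPM in VprBP-labelled libraries, against 253, 249 and 256 CPM in control-labelled libraries (log2 difference -0.43, SE 0.05, adjusted p = 5.64e-07), but its value turned on a near-identical copy. Gm10275, a processed copy on chromosome 10, matched the Rpl12 transcript over 99.8% of its length with 100% identity. It was counted at 287 ± 18.1 CPM in VprBP-labelled libraries and 226 ± 9.83 CPM in control-labelled libraries (SD, n = 3 each), and rose by 0.34 (adjusted p = 1.02e-05). With all matched pseudogene rows added, an alternative chosen after seeing the data, the Rpl12 difference was -0.02 (adjusted p = 0.765).

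Rpl5 and Rpl11 form, with the smallest ribosomal RNA of the large subunit, a particle that can bind MDM2 and so stabilise p53. Both rose. Rpl5 was at 41.7, 51.4 and 50.3 CPM in VprBP-labelled libraries, against 29.1, 36.6 and 34.7 CPM in control-labelled libraries (log2 difference 0.52, SE 0.09, adjusted p = 8.45e-05). Rpl11 was at 156, 133 and 127 CPM in VprBP-labelled libraries, against 94.4, 96.0 and 111 CPM in control-labelled libraries (log2 difference 0.47, SE 0.07, adjusted p = 1.76e-05). Neither pair of labels overlapped. Matched processed copies held more counts than either gene. Matched pseudogene rows held 91.1% of the Rpl5 and matched counts in VprBP-labelled and 92.0% in control-labelled libraries, nearly all on Gm15500 on chromosome 7. For Rpl11 the shares were 56.2% in VprBP-labelled and 57.2% in control-labelled libraries, on Gm10288 on chromosome 3. Both copies were higher too, Gm15500 by 0.36 and Gm10288 by 0.39. Exons of Rpl5 also overlap those of Dipk1a on the other strand, whose counts came to 21.5% of those of Rpl5, and the strand setting is not given in the sources used here.

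Counts on pseudogene rows were followed for all members. Of 1682 pseudogene rows in the table, 335 matched a member transcript with at least 80% identity over at least 50% of the row's length, and 70 members had such a match. The matched rows held 10.1% of the member and matched counts in VprBP-labelled libraries and 8.94% in control-labelled libraries. The load was uneven, with under 10% in 63 of the 84 members for either label and a median of 2.80% in VprBP-labelled and 2.75% in control-labelled libraries. Apart from Rpl5, Rpl11 and Rpl12 the shares above 30% for both labels belonged to Rpl27a, Rps7 and Rps13. Which gene such reads came from cannot be told from these counts. With all matched rows added, 29 members were higher and 35 lower, beside 5548 higher and 5413 lower among all genes tested in that setting.

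All 4 paralogs among the members that were tested fell, beside 30 of 77 canonical subunits and 37.0% of all genes, with a median of -0.68 and no overlap between labels. A further listed paralog, Rps12l1, is not typed as protein coding and so is no member, and it was not called (-0.27, adjusted p = 0.545), which makes the median of all 5 listed paralogs tested -0.40. Rpl22l1 and Rpl22 encode alternative forms of the same subunit protein, and in mouse RPL22 is known to hold down the Rpl22l1 transcript. Rpl22l1, at chr3:28805436-28807424 on the plus strand, was at 22.4, 22.7 and 18.9 CPM in VprBP-labelled libraries, against 57.7, 63.2 and 69.9 CPM in control-labelled libraries. This 2.97-fold lower level was the largest difference of any member (log2 difference -1.57, SE 0.09, adjusted p = 1.91e-11). Rpl22 was at 183, 197 and 176 CPM in VprBP-labelled libraries, against 120, 131 and 138 CPM in control-labelled libraries, and rose (log2 difference 0.52, SE 0.06, adjusted p = 2.60e-07). The 2 transcripts thus changed in opposite directions. Per exon length, Rpl22l1 made up 31.0%, 29.9% and 28.4% of the pair in VprBP-labelled libraries, against 64.0%, 64.0% and 65.1% in control-labelled libraries. The exact permutation test, two-sided, gave p = 0.1, the smallest that 3 libraries against 3 allow (0.167 adjusted over the 5 pairs compared). In counts not divided by length, the Rpl22l1 share was 10.3% in VprBP-labelled and 32.9% in control-labelled libraries, so which form was the larger in control-labelled libraries depended on the lengths used, while the lower share in VprBP-labelled libraries did not. The 2 coding sequences were 70.2% identical.

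Rpl36al, an autosomal paralog of the X-linked Rpl36a, also fell while its parent rose. Rpl36al, on the minus strand at chr12:69182731-69184083, had 123, 127 and 124 CPM in VprBP-labelled libraries, against 232, 238 and 258 CPM in control-labelled libraries (log2 difference -0.96, SE 0.05, adjusted p = 5.41e-12). Rpl36a had 67.9, 74.7 and 74.0 CPM in VprBP-labelled libraries, against 54.0, 53.4 and 58.2 CPM in control-labelled libraries (log2 difference 0.39, SE 0.06, adjusted p = 2.65e-05). Neither gene's labels overlapped. Per exon length the Rpl36al share of the pair was 38.2% ± 0.949 in VprBP-labelled libraries and 61.1% ± 0.446 in control-labelled libraries (SD, n = 3 each), with the same smallest exact permutation p of 0.1. In counts not divided by length it was 63.3% in VprBP-labelled and 81.5% in control-labelled libraries, so Rpl36al was then the larger form for both labels. The coding sequences of this pair were 87.7% identical, the closest of the paralogs tested. The first 60 coding bases are shown to let the distance between the copies be seen, read from GENCODE M21 on GRCm38 on each gene's strand, with the bases that differ within a pair in capitals.
Rpl36al: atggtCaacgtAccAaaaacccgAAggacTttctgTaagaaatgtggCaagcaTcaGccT
Rpl36a: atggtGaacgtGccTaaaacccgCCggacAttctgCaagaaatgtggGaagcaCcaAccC
Rps27l: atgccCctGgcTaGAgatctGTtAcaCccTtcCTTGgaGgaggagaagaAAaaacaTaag
Rps27: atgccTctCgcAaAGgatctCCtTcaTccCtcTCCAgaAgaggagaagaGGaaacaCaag

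In these stretches 11 of 60 bases differed between Rpl36al and Rpl36a, and 18 of 60 between Rps27l and Rps27. Rps27l, a p53-induced paralog in human and mouse cells, was at 75.7, 85.7 and 81.8 CPM in VprBP-labelled libraries, against 95.3, 99.2 and 107 CPM in control-labelled libraries (log2 difference -0.31, SE 0.06, adjusted p = 0.000201). Rps27 fell with it (-0.38), and the share of Rps27l in the pair was 23.3% ± 0.991 in VprBP-labelled libraries and 22.4% ± 1.26 in control-labelled libraries (SD, n = 3 each; exact permutation p = 0.5). Rps27rt had a coding sequence 100% identical to that of Rps27, so its lower level (-0.46, SE 0.09, adjusted p = 0.000299) cannot be told apart from that of Rps27. Rpl7l1, which in human cells acts in large-subunit assembly, fell by 0.40 (SE 0.06, adjusted p = 7.22e-06), while Rpl7 rose by 0.26. Its share of the pair was 3.91% ± 0.0874 in VprBP-labelled libraries and 6.03% ± 0.0814 in control-labelled libraries (SD, n = 3 each; exact permutation p = 0.1). Rpl3l, the heart and skeletal muscle form of Rpl3, was too low to test, at 1, 7 and 3 counts in VprBP-labelled libraries and 9, 3 and 0 counts in control-labelled libraries. Of the paralogs known in mouse, Rpl10l, Rpl39l and Rps4l had no row. The lowest total of any row was 10 counts over the 6 libraries. Whether a missing gene had too few counts or was not annotated is not given in the sources used here. Rps19bp1, also known as AROS, a partner of the deacetylase SIRT1, was at 12.6, 13.7 and 11.0 CPM in VprBP-labelled libraries, against 25.5, 23.6 and 26.1 CPM in control-labelled libraries (log2 difference -1.01, SE 0.11, adjusted p = 1.33e-07).

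**Figure D3:**
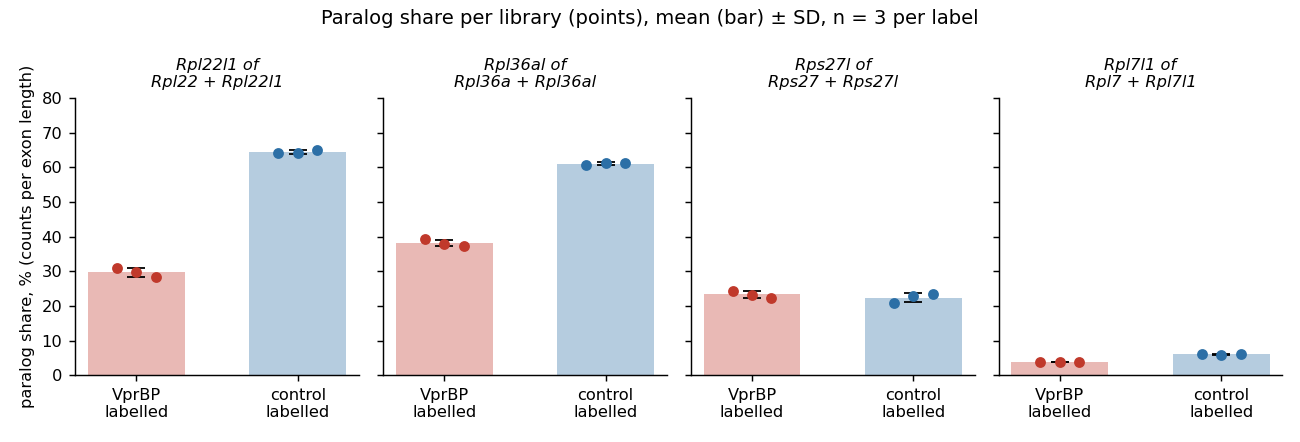
Share of the paralog in the summed counts per exon length of paralog and parent (y axis, %) for 4 pairs, in each library (points) with the mean (bar) and SD of 3 libraries per label, VprBP-labelled on the left. The Rpl22l1 share was 29.8% in VprBP-labelled and 64.4% in control-labelled libraries, the Rpl36al share was 38.2% in VprBP-labelled and 61.1% in control-labelled libraries, and the Rps27l shares overlapped.

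The canonical subunit transcripts were not at equal levels. For single genes, counts per exon length, scaled to a common total per library (TPM), were compared mainly between genes within a label. The median of the 77 was 838 TPM in VprBP-labelled and 580 TPM in control-labelled libraries, and the gene at the ninetieth percentile was 5.96-fold above the one at the tenth in either. With coding in place of exon length this ratio was 3.93 in VprBP-labelled and 3.49 in control-labelled libraries. The highest per exon length was Rplp1, at 3939 TPM in VprBP-labelled and 4710 TPM in control-labelled libraries. Rps6 (2050 TPM in VprBP-labelled, 1610 TPM in control-labelled) and Rpl19 (1952 TPM in VprBP-labelled, 1698 TPM in control-labelled) came next by the mean over all libraries. Per coding length the highest was Rpl41 in VprBP-labelled libraries (3652 TPM) and Rplp1 in control-labelled libraries (3795 TPM). The lowest per exon length was Rpl5, at 60.9 TPM in VprBP-labelled and 33.7 TPM in control-labelled libraries, which became 685 TPM in VprBP-labelled and 415 TPM in control-labelled libraries once its matched pseudogene rows were added. Rpl21 was then the lowest, at 73.4 TPM in VprBP-labelled and 67.3 TPM in control-labelled libraries. The order of the levels was nearly kept between labels, with a Spearman correlation of 0.929 across the 77 genes, which are not independent and share exon lengths. The difference between labels was weakly related to coding length (0.217) and to the pseudogene share (0.0833) across the same genes.

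**Figure D4:**
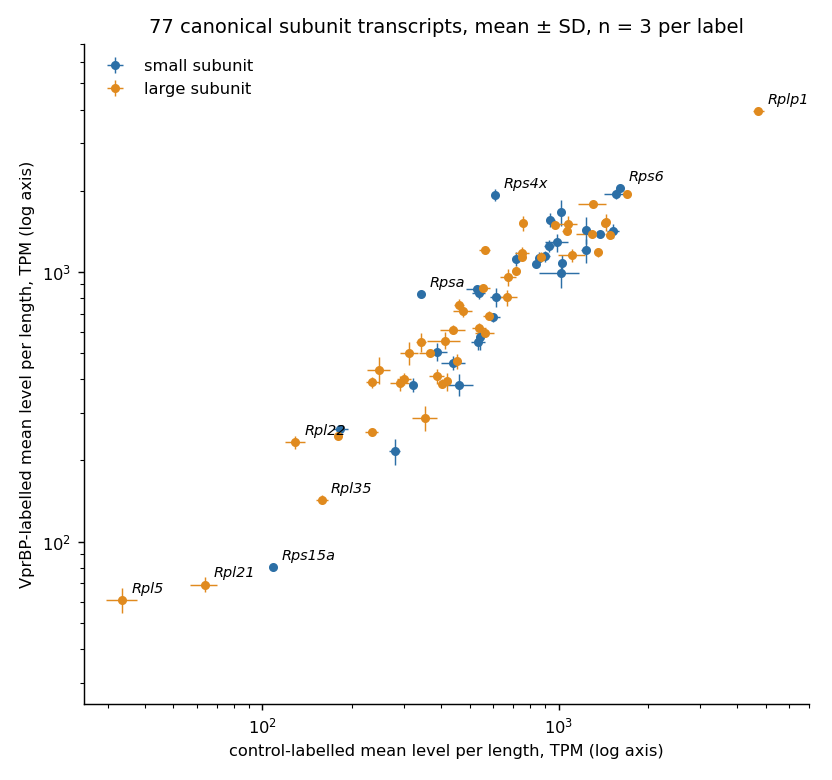
Mean level per exon length in VprBP-labelled (y axis) and control-labelled (x axis) libraries in TPM, both on log axes, for the 77 canonical subunit transcripts, with SD bars over 3 libraries, blue for the small and orange for the large subunit. Rplp1 is the highest and Rpl5 the lowest in both labels, and Rps4x and Rpsa lie above the band formed by the other genes.

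Summed over the members, the labels were close as a share of counts, but less so per exon length. Members took 2.80%, 2.75% and 2.80% of all counts in VprBP-labelled libraries, against 2.50%, 2.54% and 2.69% in control-labelled libraries. The labels did not overlap, with a difference of 0.20 percentage points (exact permutation p = 0.1, 0.115 adjusted over 15 shares). Mitochondrially encoded genes, which moved with the label, took 5.21% ± 0.340 in VprBP-labelled and 9.13% ± 0.433 in control-labelled libraries. With those genes left out of the total the member share was 2.93% ± 0.0230 in VprBP-labelled and 2.84% ± 0.0978 in control-labelled libraries (SD, n = 3 each), the difference was 0.09 percentage points and the labels overlapped (exact permutation p = 0.3). Per exon length the members held 7.27% ± 0.0907 of the total level in VprBP-labelled and 5.91% ± 0.234 in control-labelled libraries (SD, n = 3 each; exact permutation p = 0.1). The part of the mitochondrial genes and of transcript length in these shares was not tested further. The small subunit made up 43.3% ± 0.391 of the canonical level per length in VprBP-labelled libraries and 41.9% ± 0.266 in control-labelled libraries (SD, n = 3 each; exact permutation p = 0.1). The gap of 1.40 percentage points was 0.99 with coding in place of exon length and 0.81 with matched pseudogene rows added.

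The transcript starts were read for the TOP tract. RefSeq promoters of GRCm38.p6 were available for 57 of the 77 canonical subunits. A tract was a C followed by further C or T bases, at least 5 in all, on the gene's own strand. It was counted from a C within 5 bases on either side of the annotated start, so a run that began further upstream was cut at that limit. Such a tract was present in 26 of the 57 (45.6%), beside 20.4% of the 10438 tested genes with a promoter. Among the canonical subunits, it was found in 9 of 21 that were higher, 4 of 13 that were not called and 13 of 23 that were lower, and the difference between labels was weakly related to its length (Spearman -0.12 across the 57). The windows below give 10 bases before and 20 from the annotated start for the 4 subunits with a promoter that rose most and the 4 that fell most. Rpl27a and Rpl35 are added for having the longest tracts, as counted, among those higher and those lower. Capitals mark the tract as counted, where one was found. For Rpl35 the run of C and T bases begins before the capitals.
Rps4x: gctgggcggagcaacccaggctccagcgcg
Rpsa: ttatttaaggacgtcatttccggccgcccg
Rpl6: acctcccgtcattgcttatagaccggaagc
Rpl22: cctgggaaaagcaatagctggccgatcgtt
Rpl27a: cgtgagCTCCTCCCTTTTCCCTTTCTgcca
Rps15a: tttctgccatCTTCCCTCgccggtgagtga
Rps13: caaacgtcggtgagtggcgtcacttcctgt
Rpl18: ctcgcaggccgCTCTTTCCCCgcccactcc
Rps28: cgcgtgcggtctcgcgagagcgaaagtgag
Rpl35: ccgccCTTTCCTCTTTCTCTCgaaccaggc

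None of the 4 that rose most held a tract at the annotated start, and Rps15a and Rpl18 did among the 4 that fell most. A window without a match shows only that these letters are not at that annotated position. The RefSeq and GENCODE starts lay 77 bases apart for Rpsa and 2614 bases apart for Rpl18, but 3 bases apart for Rps4x and 0 for Rps28.

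Other messenger RNAs known for a TOP tract were counted in the same way. Of 25 such transcripts, translation factors, Rack1 and Fau among them, 15 rose, 4 fell and 6 were not called, with a median of 0.20, beside 37.9% higher and 37.0% lower among all genes tested. The difference from the ribosomal protein transcripts was not tested. Eef2, which moves the ribosome along the message, was at 4753, 4339 and 4566 CPM in VprBP-labelled libraries, against 1631, 1639 and 1677 CPM in control-labelled libraries (log2 difference 1.47, SE 0.04, adjusted p = 2.96e-16). Eef1a1, which brings aminoacyl-tRNA to the ribosome, was at 5157, 5462 and 5465 CPM in VprBP-labelled libraries, against 2283, 2251 and 2196 CPM in control-labelled libraries (log2 difference 1.26, SE 0.04, adjusted p = 8.88e-16). Both were far above every control-labelled library in each VprBP-labelled library, as were Eif4b (1.08) and Vim (3.72). Fau, which is made as a fusion with a ubiquitin-like domain (-0.28), Eif3a (-0.20) and Tpt1 (-0.15) were among those that fell. Host genes of small nucleolar RNAs, whose spliced transcripts also start with a TOP tract, gave 5 of 7 lower and none higher (median -0.82). The lowest was Snhg1, at 27.0, 26.0 and 25.6 CPM in VprBP-labelled libraries, against 96.5, 87.3 and 99.2 CPM in control-labelled libraries (log2 difference -1.85, SE 0.07, adjusted p = 4.44e-14). Snhg12 (-1.32), Snhg6 (-0.91) and Snhg3 (-0.82) fell as well.

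A list of 13 transcripts held escorts of single ribosomal proteins (Tsr2, Grwd1, Pdcd2 and others), kinases of small-subunit maturation (Riok1 and Riok2), the RNA-binding proteins Larp1 and Larp4, and the ubiquitin ligase Zfp598. Of the 13, 10 fell, 1 rose and 2 were not called, with a median of -1.01, beside 37.0% lower among all genes tested. Tsr2, the escort of RPS26, was at 5.77, 6.37 and 5.84 CPM in VprBP-labelled libraries, against 19.3, 16.2 and 13.1 CPM in control-labelled libraries (log2 difference -1.44, SE 0.16, adjusted p = 1.55e-07), while Rps26 itself was 0.37 higher. Grwd1, the escort of RPL3, was at 8.95, 6.48 and 5.42 CPM in VprBP-labelled libraries, against 17.4, 13.4 and 16.7 CPM in control-labelled libraries (log2 difference -1.19, SE 0.17, adjusted p = 4.99e-06), while Rpl3 was 0.66 higher. In these pairs the escort and its client differed in opposite directions, whereas Pdcd2, the escort of RPS2, fell by 1.10 and Rps2 also fell (-0.30). Riok2 (-1.22) and Ltv1 (-1.11), which act on the maturing small subunit, fell, Aamp rose (0.17) and Larp1, the TOP-binding protein, was not called (-0.03, adjusted p = 0.498). The mitochondrial ribosomal proteins, a separate set of 78 genes, gave 7 higher and 43 lower with a median of -0.30, beside 37.9% higher and 37.0% lower among all genes tested.

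**Figure D5:**
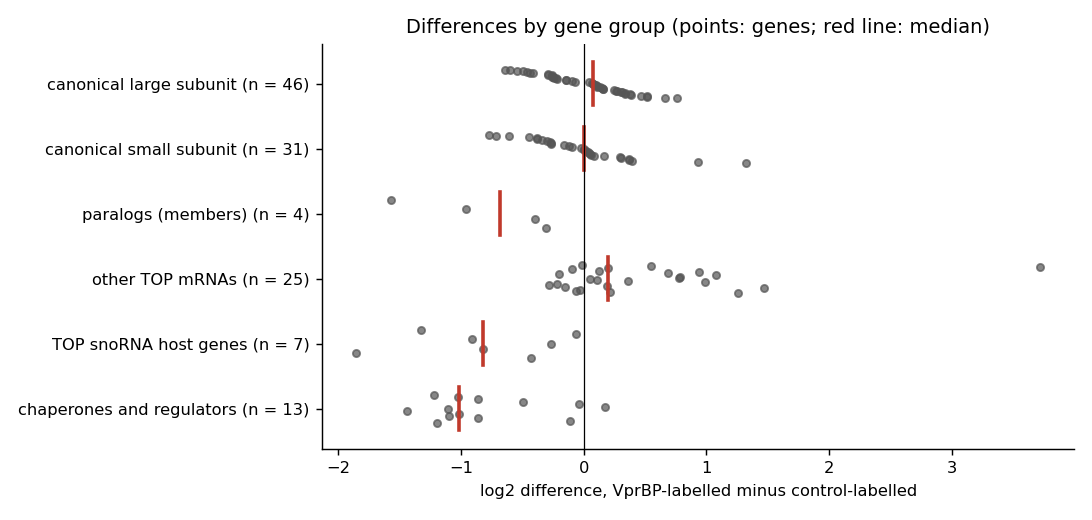
Log2 difference (VprBP-labelled minus control-labelled, x axis) of each tested gene (points) in 6 gene groups, with the group median as a red line. The medians were 0.08 for the large and 0.006 for the small subunit, -0.68 for the paralogs, 0.20 for other TOP messenger RNAs, -0.82 for small nucleolar RNA host genes and -1.01 for chaperones and regulators.

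On the X chromosome Rps4x, Rpl36a and Rpl39 rose and Rpl10 fell. Diamond-Blackfan anaemia is an inherited failure of red cell production. Of 18 ribosomal protein genes mutated in it in human, 6 were higher, 10 lower and 2 not called, with a median of -0.26. That is 88.9% called, beside 75.0% of all genes tested and 89.2% of those averaging 100 CPM or more. Rpl5 (0.52) and Rpl11 (0.47) were the largest upward in that list, and Rps15a (-0.77), Rpl18 (-0.64) and Rps28 (-0.61) the largest downward. In Rps28 and Rpl18, exons overlap those of Kank3 and Sphk2 on the other strand, whose counts came to 14.9% of the Rps28 and 8.50% of the Rpl18 counts.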

How the data were processed

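Expected counts per gene were deposited by the authors, unscaled, and Partek and the mouse build mm10 are named per the submitters' processing notes. How reads were aligned and counted, with which strand setting and annotation, is not given in the sources used here, and fractional counts can arise when reads are shared among genes, which leaves near-identical copies uncertain. The deposited estimated counts were rounded and fitted in R 4.3.3 with edgeR 4.0.16 (filterByExpr, TMM scaling, quasi-likelihood F test, label as the only term), with Benjamini-Hochberg adjustment over all 14641 genes tested. The fit was tested on simulated data in which few genes changed, equally in both directions, with a common spread for all genes. That setting differs from these data, where 75.0% of the genes tested were called, so it does not show how the fit behaves here. CPM uses TMM-scaled library sizes, and TPM uses GENCODE M21 exon lengths. All 84 members matched GENCODE M21. Pseudogene rows were matched with blastn 2.17.0. Shares were compared by two-sided exact permutation tests of log2 values.

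Named were Dcaf1, the 8 members called higher and the 8 lower with the largest difference, all paralogs, Rps19bp1, the stalk and Rpl5 with Rpl11, the 3 highest, 3 lowest and 3 least different members, untested members, and up to 4 called genes per direction of each other list. A further few members were named after their values were seen, to show the range of each subunit, and a few members are not reported by name here. The members, lists and tests were chosen with earlier results of these data known. Alternatives were other scalings, filters, DESeq2 1.42.0, a replicate block, added pseudogene rows, mitochondrial genes left out, coding lengths and each library left out in turn.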

Additional observations from a re-analysis of the deposited data

How the results depend on the processing

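No member called in either direction was called in the other under any of 17 alternatives to the fit across genes. None of these scaled counts per exon length, and the direction of smaller differences depended on that scaling. In mean TPM some members called lower were higher in VprBP-labelled libraries, such as Rpl19 (1952 against 1698 TPM in control-labelled libraries) and Rplp0 (1519 against 1432 TPM). Others stayed lower, such as Rplp1 (3939 against 4710 TPM). Under all 17, 23 members remained higher and 29 remained lower, of 63 called. With library size as the only scaling, 42 members were higher, 15 were newly called and 6 calls were lost, and the member median was 0.12, while the median of all genes tested was 0.10; relative to that shift the members stayed near 0. Among 476 repeats of results for single named genes, 467 kept their call, 6 lost it and 3 gained it. The calls lost were those of Rpl19 (-0.02), Rpl21 (-0.11) and Dcaf1 (-0.12) with library size only, of Rpl12 (-0.02) with matched pseudogene rows added, and of Rpl21 without VprBP-labelled library 3 (-0.16, adjusted p = 0.0918) or control-labelled library 3 (-0.18, adjusted p = 0.0534).

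Leaving out each library in turn gave 23 to 29 members higher, 34 to 36 lower and a member median between -0.029 (without control-labelled library 1) and 0.019 (without VprBP-labelled library 2). Calls lost in this way belonged to 7 members (Rpl8, Rpl15, Rpl21, Rpl27, Rpl28, Rpl30 and Rps23), with adjusted p between 0.0534 and 0.262, and 59 to 61 of the 63 calls remained. The Rpl22l1 share differed by -35.3 to -33.9 percentage points, the Rpl36al share by -23.5 to -22.6, and the member share of counts by 0.16 to 0.26. The cause of each change was not tested.

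Replicate numbers are shared between the labels but nothing says that they pair libraries, and the deviations of same-numbered libraries from their label means correlated at -0.03, 0.007 and -0.04. With the replicate block, 25 members were higher and 36 lower, Rpl15 and Rpl28 losing their calls. Among all genes tested, 5395 were then higher and 5254 lower. The wide calling over the whole table, 75.0% of genes, means that a call by itself says little about a member, and sizes carry more. Reads shared with processed copies limit Rpl5, Rpl11, Rpl12, Rpl27a, Rps7, Rps13 and Rps15a most.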
